A study of Mus musculus with 6 samples.

Results

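The 9 genes described here mark the double positive stage of thymocyte development: the coreceptor genes Cd4, Cd8a and Cd8b1, the antigen-presenting gene Cd1d1, the nuclear regulators Satb1 and Ikzf3, and Arpp21, Aqp11 and A930013B10Rik. They were taken by symbol from a table of 34573 genes, and all 9 were found and passed the filter on low counts. The libraries came from double negative 3 (DN3) thymocytes, CD4-CD8-CD44-CD25+ cells of the adult thymus, from mice aged 6 to 8 weeks on a mix of C57BL/6 and 129. Both groups carried the floxed Rpl22l1 gene (Rpl22l1f/f). The 3 WT libraries were from mice without Cre and the 3 L1 KO libraries from mice with Cre, per the sample labels. The series text names Vav-Cre, whose promoter drives Cre in blood-forming cells from early in development, and it assigns Cre to the groups the other way round. WT therefore differs from L1 KO in Cre itself as well as in Rpl22l1, and the labels do not say whether the 3 libraries of a group were separate mice.

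Thymocytes that pass the DN3 stage with a working T cell receptor beta chain divide, turn on CD8 and CD4, and become double positive cells, which make up most of the thymus. CD4 and CD8 are coreceptors: they bind MHC class II and class I on the cell that presents antigen and bring the kinase Lck to the receptor. Double positive cells also carry CD1d, which presents lipids and selects natural killer T cells, and have high levels of the genome organiser SATB1. The comparison asks how these genes of a later stage stood in DN3 cells with less RNA of Rpl22l1. This gene encodes a close relative of ribosomal protein RPL22.

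Reads counted to genes ranged from 13887672 in L1 KO 3 to 28128186 in L1 KO 2. Levels are given as CPM, counts scaled to a common library size after TMM normalisation. Rpl22l1 fell to 21.6 ± 4.0 from 109 ± 19.95 CPM (SD, n = 3), with every L1 KO library below every WT library, the direction that the labels state. WT 1 and L1 KO 1 deviated together from their group means, with a correlation of 0.58 over genes (genes are no replicates). For this reason each count of called genes is also given without this pair or with the library number as a block.

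Of the 9 genes, 2 fell in L1 KO, A930013B10Rik and Cd1d1, in the quasi-likelihood test of edgeR (adjusted p under 0.05, Benjamini-Hochberg). Over all 13729 tested genes, 2.48% were called lower. In the same test 0 of the 9 were called higher, against 2.08% of all genes, and 0 by DESeq2 or limma-voom. An unadjusted p under 0.05 in edgeR was found for 3 members, all with a negative change, and for 3227 of the 13729 tested genes. The median log2 fold change of the 9 genes was −0.16, with 6 negative and 3 positive, and that of all tested genes was −0.0066. With the library number as a block, 3 members were lower, Aqp11 being added, where 10% of all tested genes were called lower, and 0 were higher, against 9.51%. Without both number 1 libraries the same count was 3, where 2798 of 13692 tested genes were called in either direction. The coreceptor genes, Arpp21, Satb1 and Ikzf3 did not pass in either fit.

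**Figure D1:**
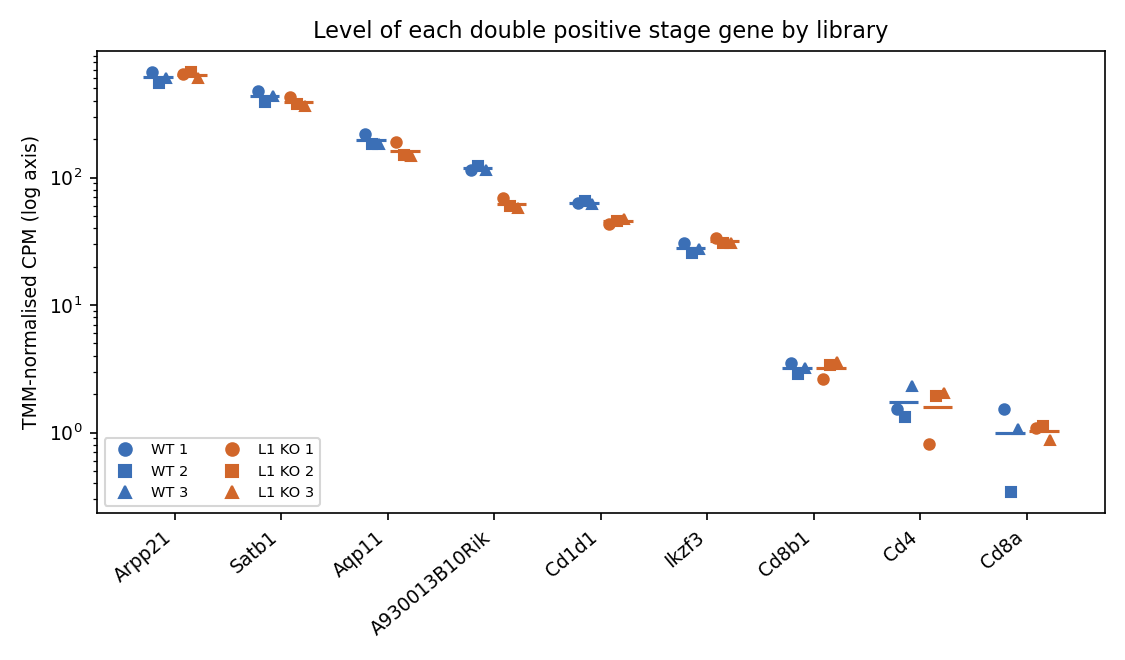
TMM-normalised CPM (log axis) of the 9 genes in each library, WT in blue and L1 KO in orange; the marker shape gives the library number and the line the group mean. Levels run from under 4 CPM for Cd4, Cd8a and Cd8b1 to 547 to 675 CPM for Arpp21, and the groups are apart for A930013B10Rik and Cd1d1.

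The genes that define double positive cells were near the detection limit in these DN3 libraries, while the other 6 members were well expressed. For Cd8a, the alpha chain gene of CD8, 34, 7 and 21 reads were counted in WT 1 to 3, and L1 KO 1 to 3 gave 28, 31 and 12. The WT libraries held 34, 27 and 46 reads of Cd4 and the L1 KO libraries 21, 53 and 28. Of Cd8b1, which encodes the beta chain of CD8, there were 77, 59 and 63 reads in WT against 68, 94 and 49 in L1 KO. No coreceptor gene reached 4 CPM in a library, although each lay above the level that 3 reads give, which was 0.109 to 0.219 CPM. Il2ra, the CD25 gene by which DN3 cells are sorted, was at 1397 to 1750 CPM in WT and 1829 to 1994 CPM in L1 KO. The groups did not overlap, higher in L1 KO, as for 13.8% of all tested genes. The adjusted p of Il2ra was 0.102 in edgeR and 0.00412 with the block. Ptcra, the pre-T cell receptor alpha gene, was at 112 to 132 CPM over all libraries. Cd44, whose product DN3 cells lack, was at 1.14 to 1.90 CPM in WT and 1.56 to 4.54 CPM in L1 KO. It was higher in every same-numbered pair, as were 26.5% of all tested genes. The log2 fold change of Cd44 was 1.07 ± 0.41 (adjusted p = 0.166 in edgeR, 0.0119 with the block). Of all 10 listed DN3 markers, including these, 6 had a positive and 4 a negative log2 fold change. The part of these differences in the results for the 9 genes was not tested. Whether the coreceptor reads came from DN3 cells or from a few double positive cells in the sort was not tested, and in bulk RNA fewer cells of a type and less RNA per cell cannot be told apart.

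To compare genes with each other, CPM were divided by the merged exon length in kilobases (kb) in the GENCODE annotation. On this scale A930013B10Rik was the highest member in WT, at 55.3 ± 2.53 CPM per kb, followed by Arpp21 at 34.99 ± 3.67. Cd1d1 (24.8 ± 0.576), Satb1 (22.9 ± 2.32) and Aqp11 (20.8 ± 2.08) came next, and the ranges of neighbours in that order overlapped. Ikzf3 followed at 3.18 ± 0.282 CPM per kb, then Cd8b1 at 2.15 ± 0.210, Cd4 at 0.430 ± 0.133 and Cd8a at 0.271 ± 0.167, of which Cd4 and Cd8a overlapped. In L1 KO, Arpp21 (36.7 ± 1.97) stood above A930013B10Rik (29.0 ± 2.90), and Satb1 (20.4 ± 1.78) above Cd1d1 (17.7 ± 0.838). Cd1d1 overlapped Aqp11 (17.2 ± 2.42) there. The order of the 4 lowest members was that of WT, and Cd4 and Cd8a again overlapped. The annotation behind the authors' counts is not given in the sources used here, so the lengths are those of GENCODE only. Merged exons cover all transcripts of a gene. They came to 17.4 kb for Arpp21 and 19.0 kb for Satb1, whose longest transcripts have 5320 and 6243 bases. For A930013B10Rik they came to 2.13 kb, with a longest transcript of 1943 bases. The order of the members, and the different top member in each group, therefore depend on this choice of length.

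A930013B10Rik fell most. It is a long noncoding RNA gene, now named Dgkeos (ENSMUSG00000063109), that runs on the plus strand of chromosome 11 from 89064729 to 89069098 in GENCODE (GRCm38), antisense to Dgke. Dgke encodes diacylglycerol kinase epsilon, an enzyme that phosphorylates the lipid messenger diacylglycerol. A930013B10Rik was at 115, 124 and 114 CPM in WT 1 to 3 and at 68.9, 59.4 and 57.4 CPM in L1 KO 1 to 3. The lowest WT library was thus well above the highest L1 KO library. The means were 118 ± 5.39 and 61.9 ± 6.19 CPM (SD, n = 3), which left 52.5% of the WT level. On the log2 scale this was −0.93 ± 0.08 (SE; adjusted p = 0.000772 in edgeR).

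The opposite gene Dgke also fell, to a smaller degree. It had 410, 406 and 378 CPM in WT and 317, 294 and 275 CPM in L1 KO, so the groups did not overlap. Its log2 fold change was −0.43 ± 0.07, with an adjusted p of 0.0165 in edgeR. Dgke lost its call when WT 2, L1 KO 2 or L1 KO 3 was left out, with adjusted p of 0.0931, 0.0895 and 0.0769 in edgeR. Within each library, reads of A930013B10Rik relative to Dgke were lower in L1 KO. The log2 ratio was −1.76 ± 0.06 in WT and −2.26 ± 0.05 in L1 KO (SD, n = 3), a difference of −0.50 with no overlap, and the two-sided exact permutation test gave p = 0.1, the smallest that 3 against 3 libraries allow, and 0.3 after adjustment over 3 such ratios. The GENCODE models of these genes share 100 exonic bases and a span of 2122 bases. The strand setting of the counting is not given, so reads of the shared part cannot be assigned to one strand. The RefSeq model of Dgkeos differs: it starts at 89060751 and shares 45 bases with the 5′ end of the RefSeq Dgke model at 89060795.

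**Figure D2:**
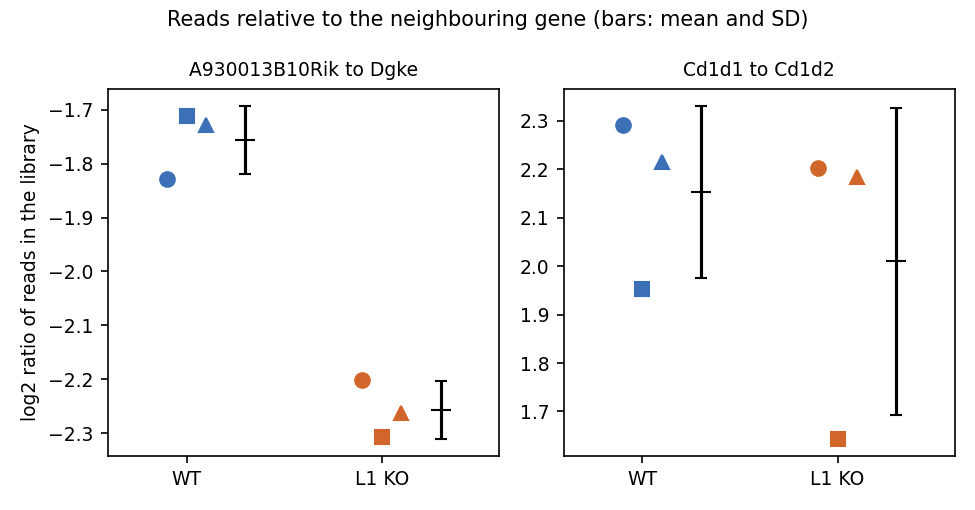
Log2 ratio of read counts between a gene and its neighbour within each library, with the group mean and SD as bars (n = 3). The ratio of A930013B10Rik to Dgke is −1.83 to −1.71 in WT and −2.31 to −2.20 in L1 KO, while the ratios of Cd1d1 to Cd1d2 overlap.

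Start-site windows, from 250 bases before to 50 bases after a RefSeq start, were in the table for 5 of the 9 genes: Cd8a, Aqp11, Arpp21, Satb1 and Dgkeos. The windows of Dgkeos and Dgke are printed because both genes fell and start head to head in RefSeq. Those of Aqp11, called only in some fits, and Cd8a, among the lowest members, are printed for contrast. They are from RefSeq on GRCm38.p6, 5′ to 3′ on the strand of the gene. Capitals mark the E-box CAGNTG on either strand, the site of the E proteins TCF3 and TCF12.
Dgkeos, chr11:89060501-89060800, plus strand: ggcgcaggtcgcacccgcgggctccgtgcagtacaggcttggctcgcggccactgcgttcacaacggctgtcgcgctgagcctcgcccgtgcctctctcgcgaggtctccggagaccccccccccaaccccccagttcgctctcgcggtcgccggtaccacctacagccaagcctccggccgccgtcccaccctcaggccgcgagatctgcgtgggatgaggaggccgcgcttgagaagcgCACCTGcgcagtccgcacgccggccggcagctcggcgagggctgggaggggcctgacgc
Dgke, chr11:89060699-89060998, minus strand: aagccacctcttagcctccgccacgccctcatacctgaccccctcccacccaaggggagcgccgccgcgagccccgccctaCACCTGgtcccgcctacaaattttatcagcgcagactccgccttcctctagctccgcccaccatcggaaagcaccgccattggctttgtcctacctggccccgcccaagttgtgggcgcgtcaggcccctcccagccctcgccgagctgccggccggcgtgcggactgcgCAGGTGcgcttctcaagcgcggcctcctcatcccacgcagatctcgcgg
Aqp11, chr7:97738198-97738497, minus strand: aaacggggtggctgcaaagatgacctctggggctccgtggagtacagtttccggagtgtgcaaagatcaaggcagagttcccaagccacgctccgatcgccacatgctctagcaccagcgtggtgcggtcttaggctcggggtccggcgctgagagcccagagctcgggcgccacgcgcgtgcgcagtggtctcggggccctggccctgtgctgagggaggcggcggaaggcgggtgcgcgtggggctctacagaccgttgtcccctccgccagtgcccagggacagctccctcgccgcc
Cd8a, chr6:71373177-71373476, plus strand: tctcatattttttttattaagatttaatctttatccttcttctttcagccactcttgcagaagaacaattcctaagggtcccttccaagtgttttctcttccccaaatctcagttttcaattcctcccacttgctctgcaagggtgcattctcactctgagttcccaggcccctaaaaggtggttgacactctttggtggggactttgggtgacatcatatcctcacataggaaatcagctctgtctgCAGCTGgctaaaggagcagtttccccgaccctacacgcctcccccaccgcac

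The Dgkeos and Dgke windows share 102 bases on opposite strands. That shared part holds 1 E-box, at 89060742 to 89060747 on chromosome 11, which is the only one of the Dgkeos window and 1 of 2 in the Dgke window. The Cd8a window holds 1 E-box at its start site and the Aqp11 window has no match. Arpp21 and Satb1 have 9 and 5 windows, which are not printed and hold 0 to 5 and 0 to 4 E-boxes. An E-box occurs in 51.4% of all 32851 windows of this length. The RUNX word TGTGGT, searched on both strands, has no match in these 4 windows and occurs in 16.8% of all windows. The same holds for CTTTGA, a word of LEF1 and its relatives, in 16.0% of all windows, and for AGATAA, a word of GATA3, in 11.2%. The Arpp21 window that starts at 112233673 on chromosome 9, not printed, holds 1 match of each of these words. No E-box shown overlaps one of these words. The windows differ in CpG content. Dgkeos has 38 CpG and 73.3% GC, Dgke 29 CpG and 68.3% GC, and Aqp11 27 CpG and 68.0% GC, while Cd8a has 3 CpG and 46.7% GC. Of all windows, 95% have fewer CpG than that of Dgkeos and 23.3% fewer than that of Cd8a. A match of letters is a description and does not show binding.

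Cd1d1, which presents lipid antigens, was the other member that fell. It lies on the minus strand of chromosome 3 from 86995834 to 86999441 (ENSMUSG00000028076). Its levels were 63.5, 65.3 and 62.4 CPM in WT 1 to 3 and 43.0, 45.9 and 47.2 CPM in L1 KO 1 to 3. The libraries of each group lay close together and the groups were far apart. The means were 63.7 ± 1.48 and 45.4 ± 2.15 CPM (SD, n = 3), or 71.2% of WT, a log2 change of −0.49 ± 0.07 (adjusted p = 0.0063 in edgeR). These levels rest on 645 to 1396 reads per library.

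Cd1d1 has a near copy, Cd1d2, that lies 6.05 kb away. Of the 50-base stretches of the longest Cd1d1 transcript, 25.8% also occur in transcripts of Cd1d2. The 50 bases were a set length, not taken from the reads. A read that fits both genes equally has no unique alignment, and reads without a unique alignment were counted to no gene. For the other 8 members the share found in any other gene was 0% to 6.28%. Cd1d2 was at 12.96, 16.9 and 13.4 CPM in WT and 9.34, 14.7 and 10.4 CPM in L1 KO, with overlapping groups. Its log2 fold change was −0.32 ± 0.18, with an adjusted p of 0.329 in edgeR and 0.0459 with the block. The log2 ratio of Cd1d1 to Cd1d2 reads was 2.15 ± 0.18 in WT and 2.01 ± 0.32 in L1 KO. That difference of −0.14 gave p = 0.5 in the two-sided exact permutation test (adjusted 0.75). With 3 against 3 libraries this test gives no p under 0.1, so it could not show a difference between the changes of these genes.

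Dendritic cells also use Cd1d1, Cd4 and Cd8a, and some of their markers were lower in L1 KO. Of 10 dendritic markers 4 were tested and 2 fell, Cd74 and H2-Eb1, where 2.48% of all tested genes were called lower. The count was 1 with DESeq2 or without WT 1, and 0 without any one of WT 2, WT 3, L1 KO 2 and L1 KO 3. With a filter of 5 CPM, which takes genes below that mean out of the test, it was also 0. It was 4 with the block, where 10% of all tested genes were called lower. Without both number 1 libraries it was 2, where 2798 of 13692 tested genes were called. The summed level of the 10 was 8.82 to 10.97 CPM in WT and 4.36 to 6.07 CPM in L1 KO. Xcr1 and Batf3, which define one dendritic lineage, had 0 reads in all 6 libraries. B cells use Cd1d1 and Ikzf3; the 6 B lineage markers summed to 30.5 to 33.0 CPM in WT and 23.7 to 27.1 CPM in L1 KO. Nearly all of it was Cd79b, with Ms4a1 and Pax5 at 0 reads. The part of these cells in the result for Cd1d1 was not tested.

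Aqp11 encodes an aquaporin of intracellular membranes. It was at 218, 184 and 184 CPM in WT 1 to 3 and at 188, 151 and 147 CPM in L1 KO 1 to 3. The number 1 library was the highest of each group, and L1 KO 1 lay above WT 2 and WT 3, so the groups overlapped. Each L1 KO library was below the WT library of its number. The log2 fold change was −0.27 ± 0.11, with an adjusted p of 0.183 in edgeR, and −0.27 ± 0.05 with an adjusted p of 0.0068 with the block. Without L1 KO 1 it was −0.38 with an adjusted p of 0.0186, and without both number 1 libraries −0.30 with an adjusted p of 0.00343.

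**Figure D3:**
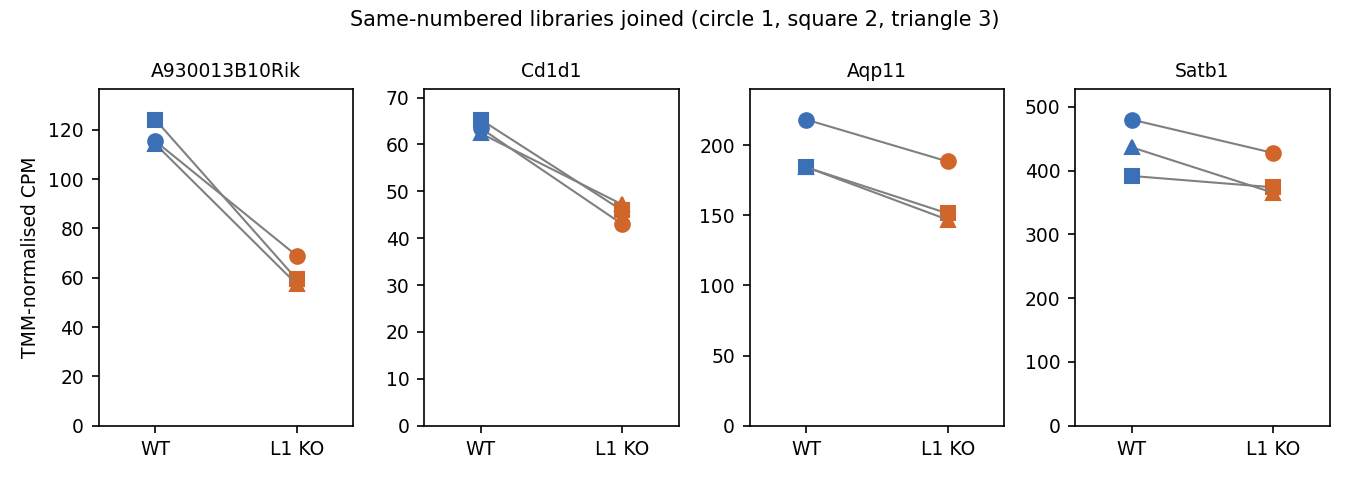
CPM of A930013B10Rik, Cd1d1, Aqp11 and Satb1, with libraries of the same number joined by a line (axes start at 0). All lines go down, and for Aqp11 and Satb1 the number 1 library (circle) is the highest of its group.

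Satb1, whose product folds chromatin and sets gene expression in thymocytes, was at 480.1, 392 and 437 CPM in WT and 428, 374 and 365 CPM in L1 KO. As for Aqp11, each L1 KO library was below its number's WT library and the groups overlapped. The log2 fold change was −0.16 ± 0.09 with a 95% interval of −0.38 to 0.05, and the adjusted p in edgeR was 0.321 and 0.0604 with the block. In total 4 of the 9 genes were lower in every same-numbered pair, where 27.7% of all tested genes were; Ikzf3 was the 1 member higher in every pair, as were 26.5% of all tested genes. Groups without overlap, lower in L1 KO, were found for 2 of the 9 and for 14.7% of all tested genes; higher in L1 KO, for 0 of the 9 and for 13.8%. Part of the Satb1 and Arpp21 gene spans is shared with other annotated transcripts, which overlap 128 and 156 exonic bases of Satb1 and 580 of Arpp21.

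Ikzf3 encodes Aiolos, a zinc finger factor of the Ikaros family. It was at 30.5, 25.6 and 27.3 CPM in WT and 33.3, 30.8 and 30.4 CPM in L1 KO, so that only WT 1 reached the L1 KO range. The log2 fold change was 0.18 ± 0.09, with an interval of −0.017 to 0.38 and an adjusted p of 0.249 in edgeR, or 0.106 with the block. Its relatives gave changes in both directions. Ikzf1 (Ikaros) had 0.22 ± 0.07, Ikzf5 (Pegasus) 0.16 ± 0.07, Ikzf2 (Helios) −0.31 ± 0.09 and Ikzf4 (Eos) −0.45 ± 0.12 on the log2 scale. For each of these 4 the groups did not overlap, as for 28.4% of all tested genes, and none passed, with adjusted p of 0.113, 0.212, 0.0742 and 0.0733 in edgeR. With the block Ikzf1, Ikzf2 and Ikzf4 passed, at adjusted p of 0.0198, 0.0169 and 0.0286.

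Arpp21, an RNA-binding protein gene whose intron holds the microRNA gene Mir128-2, had the highest CPM of the 9. It was at 675, 547 and 607 CPM in WT and 643, 672 and 603 CPM in L1 KO, with overlapping groups. The log2 fold change was 0.07 ± 0.09, with an interval of −0.13 to 0.27 and an adjusted p of 0.682 in edgeR. Its counts of 8245 to 18510 reads per library make this the member with the least counting error.

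The coreceptor genes did not pass, and their intervals were wide. The means of Cd4 were 1.73 ± 0.537 CPM in WT and 1.6 ± 0.678 CPM in L1 KO (SD, n = 3), and the log2 fold change was −0.16 ± 0.37, with an interval of −0.999 to 0.67. The means of Cd8a were 0.985 ± 0.607 and 1.03 ± 0.134 CPM, with 0.09 ± 0.43 and an interval of −0.89 to 1.06. Its lowest and highest libraries, WT 2 at 0.341 CPM and WT 1 at 1.55 CPM, were both WT. The means of Cd8b1 were 3.19 ± 0.312 and 3.21 ± 0.50 CPM, with −0.011 ± 0.18 and an interval of −0.43 to 0.41. The adjusted p of these 3 genes in edgeR were 0.823, 0.928 and 0.979. By counting error alone, the ratio of L1 KO to WT reads after scaling was 0.885 for Cd4 (95% exact interval 0.668 to 1.17), 1.06 for Cd8a (0.746 to 1.52) and 0.985 for Cd8b1 (0.807 to 1.2). The intervals of the model, which include the spread between libraries, were wider. Changes of any size within them are compatible with these data, and the smallest change that could be detected was not computed.

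**Figure D4:**
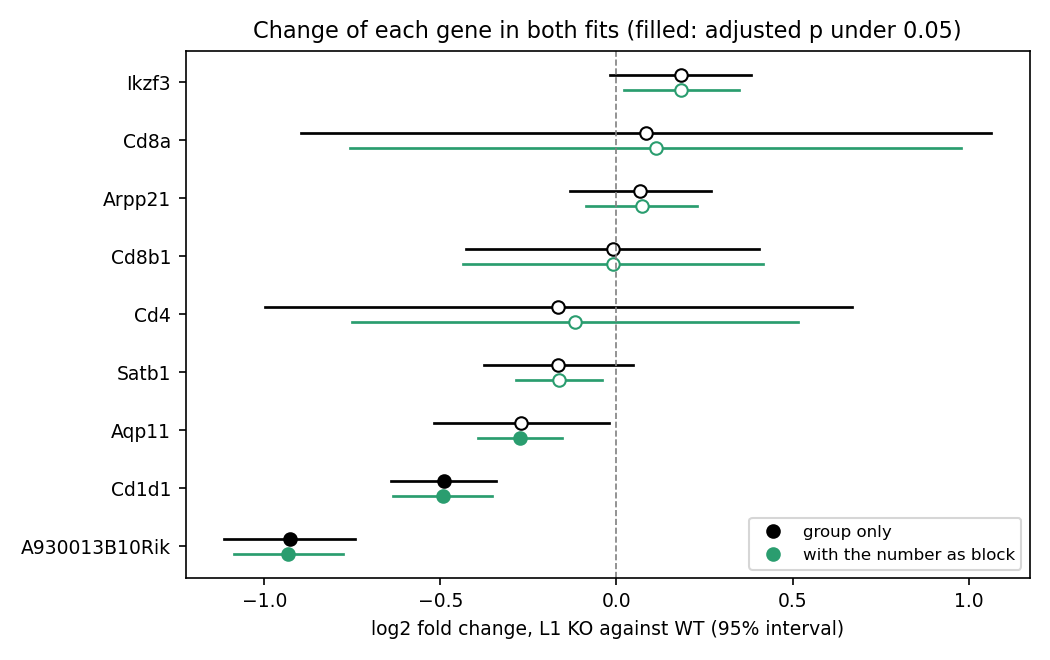
Log2 fold change of each gene in L1 KO against WT with its 95% interval, in the fit on group alone (black) and with the library number as a block (green); filled points have an adjusted p under 0.05. A930013B10Rik and Cd1d1 are filled in both fits and Aqp11 with the block only, while Cd4 and Cd8a have the widest intervals.

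The coreceptor genes are close to relatives on chromosome 6. Cd8b1 (71322788 to 71337494) and Cd8a (71373427 to 71379173) lie 35.9 kb apart on the plus strand. The log2 ratio of Cd8a to Cd8b1 reads was −1.95 ± 0.998 in WT and −1.64 ± 0.38 in L1 KO (exact permutation p = 0.9, adjusted 0.9). Cd4 (124864692 to 124888221, minus strand) is 16.1 kb from Lag3, which encodes a CD4-related inhibitory receptor for MHC class II. Lag3 had 4.55, 3.07 and 2.44 CPM in WT and 2.61, 2.10 and 1.68 CPM in L1 KO. Its log2 fold change was −0.62 ± 0.27, with an adjusted p of 0.201 in edgeR and 0.0324 with the block. Of 9 tested relatives of the members, 0 passed in edgeR and 5 had an unadjusted p under 0.05, as had 3227 of all 13729 tested genes. DESeq2 called 3, where it called 1222 of all tested genes, and limma-voom called 0. With the block 1 was higher and 4 lower, where 9.51% and 10% of all tested genes were. Without both number 1 libraries 2 were called, where 2798 of 13692 tested genes were.

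Factors that act on the coreceptor genes were present. Of 17 tested regulators of Cd4 and Cd8, 1 rose and 1 fell, where 4.56% of all tested genes were called in either direction, and the median change of the list was 0.05 on the log2 scale. Lef1, an HMG box factor of early T cells, was at 246, 179 and 223 CPM in WT and 381, 317 and 290.2 CPM in L1 KO. It rose by 0.61 ± 0.14 on the log2 scale, with an adjusted p of 0.0484. Smarca4, the BRG1 ATPase of a chromatin remodelling complex that acts on both coreceptor loci, was at 941, 924 and 879.6 CPM in WT and 726, 737 and 728 CPM in L1 KO. It fell by 0.33 on the log2 scale (SE 0.07), with an adjusted p of 0.0285. Tox, a factor needed for CD4 T cells, had 0.35 ± 0.09 and an adjusted p of 0.0657, in the same edgeR test. Zbtb7b, which sets the CD4 lineage after the double positive stage, had 4 reads in all, each in WT 1 or WT 2, and was not tested. The Lef1 and Smarca4 calls were both lost when WT 2, WT 3, L1 KO 2 or L1 KO 3 was left out, and that of Smarca4 also without WT 1. Lef1 also did not pass with library size only, without the count filter or with a filter of 5 CPM. With the block 3 regulators were higher and 4 lower, where 19.5% of all tested genes were called.

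Of 12 other genes of the double positive stage, 2 fell and none rose in edgeR, 6 had an unadjusted p under 0.05, and the median log2 fold change was 0.03. Over all 13729 tested genes, 2.48% were called lower and 2.08% higher, and 3227 had an unadjusted p under 0.05. Ccr9, a chemokine receptor gene of thymic homing, was at 130.5, 122 and 94.9 CPM in WT and 34.2, 30.7 and 24.9 CPM in L1 KO. Its log2 fold change of −1.95 ± 0.15 was larger than that of any of the 9 genes, with an adjusted p of 0.000772. Of Slc7a11, a cystine transporter gene, there were 33, 33 and 22 reads in WT against 15, 7 and 9 in L1 KO. Its log2 fold change was −1.59 ± 0.36 with an adjusted p of 0.0432. It did not pass with limma-voom, with earlier edgeR defaults or without any one of WT 1, WT 2, WT 3, L1 KO 2 and L1 KO 3. Rag2 and Cd5, a recombinase gene and a gene of receptor signal strength, had −0.39 ± 0.14 and 0.39 ± 0.10, with adjusted p of 0.153 and 0.062. With the block 1 was higher and 3 lower, where 19.5% of all tested genes were called in either direction. The lower genes included Rag1, named after its values were seen, at −0.37 with an adjusted p of 0.00446.

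**Figure D5:**
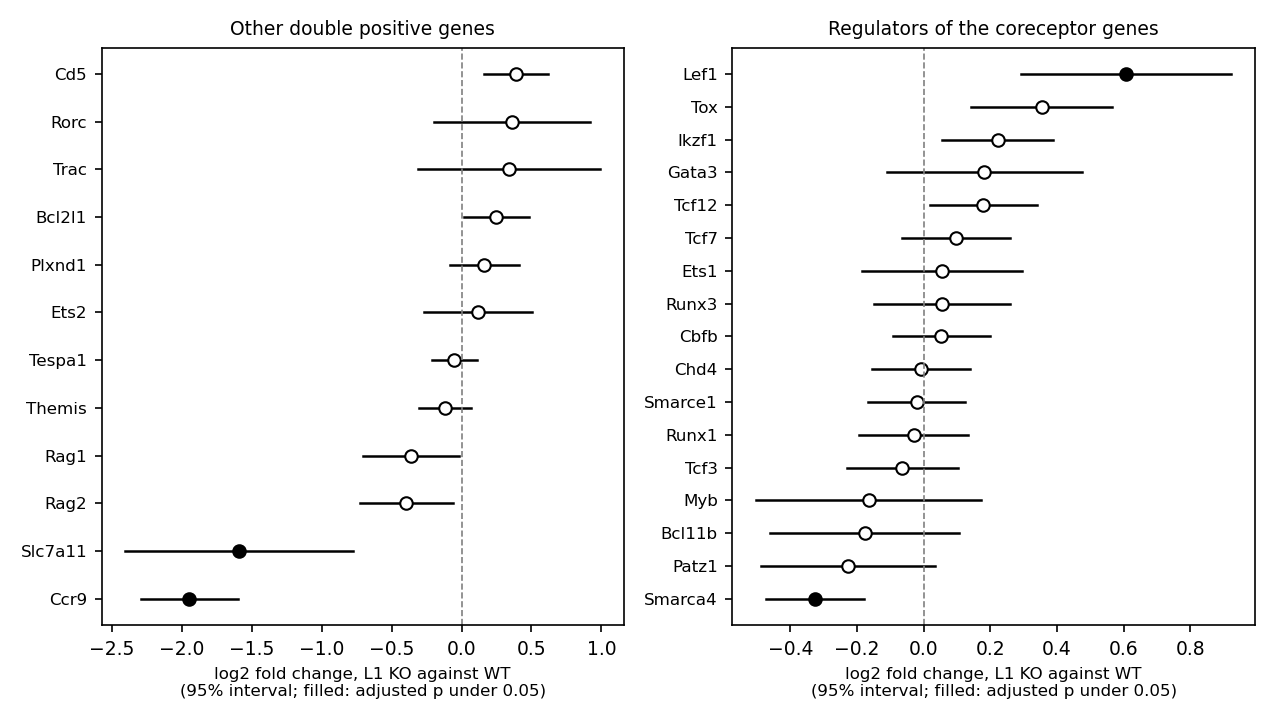
Log2 fold change of L1 KO against WT with 95% intervals for 12 other genes of the double positive stage and 17 regulators of the coreceptor genes; filled points have an adjusted p under 0.05. Ccr9 and Slc7a11 on the left, and Lef1 and Smarca4 on the right, are filled, and the rest lie on both sides of 0.

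Among 9485 tested genes with a mean of at least 10 CPM, the 3 whose profile over the 6 libraries was most like that of A930013B10Rik were Spo11, F730043M19Rik and Hsd11b1. Likeness was the root mean square difference of log2 CPM deviations, which was 0.065, 0.078 and 0.082. Spo11, the gene of the enzyme that cuts DNA in meiosis, fell from 93.7 ± 0.992 to 47.3 ± 2.63 CPM. Hsd11b1, a gene of glucocorticoid activation, fell from 23.5 ± 1.73 to 13.5 ± 2.13 CPM, and F730043M19Rik from 37.9 ± 2.19 to 18.6 ± 2.56 CPM. Their fall follows from this choice, since the profile includes the group difference, and is given as a description. The 6 points also share the library depth.

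The markers of other cells were as follows. The list of DN3 markers includes Cd44, whose product DN3 cells lack, so a rise in a member of this list is not always a rise of a DN3 trait. These markers gave 0 calls of 10 in edgeR, with 4 at an unadjusted p under 0.05, 2 calls by DESeq2 and 0 by limma-voom. With the block 3 were higher, Cd44 among them, and 1 lower, where 9.51% and 10% of all tested genes were. Without L1 KO 1 the calls were 3, where 2043 of 13953 tested genes were called. Without both number 1 libraries they were 5, where 2798 of 13692 tested genes were called. Of 5 tested mature T markers, 2 rose, Klf2 and Cd6, where 2.08% of all tested genes were called higher. The count was 1 with a filter of 5 CPM or without any one of WT 2, WT 3, L1 KO 2 and L1 KO 3. It was 3 with DESeq2, where 1222 of 13729 tested genes were called, and 3 with the block, where 19.5% were. It was also 3 without L1 KO 1, where 2043 of 13953 tested genes were called. Without both number 1 libraries it was 4, where 2798 of 13692 were called. The list's sum was 652 to 732 CPM in WT and 743 to 903 CPM in L1 KO. Erythroid markers summed to 3.0 to 5.90 CPM in WT and 0.805 to 3.70 CPM in L1 KO. The myeloid sum was 29.9 to 35.6 and 31.3 to 35.8 CPM, and the gamma-delta sum 1098 to 1251 and 1107 to 1287 CPM. The sum of natural killer and innate lymphoid markers was 114 to 158 and 161 to 201 CPM, nearly all from Gzma, with Ncr1 at 0 reads. In the B lineage, erythroid, myeloid, natural killer and gamma-delta lists edgeR called 0 markers, where 4.56% of all tested genes were called. The tested markers of these lists were 1 of 6, 3 of 6, 4 of 6, 1 of 5 and 4 of 6. At an unadjusted p under 0.05 there were 1, 1, 0, 1 and 0, against 3227 of all 13729 tested genes. DESeq2 called 1, 1, 0, 1 and 0, where it called 1222 of all tested genes, and limma-voom 0 in each. In the same order the calls were 1, 1, 0, 1 and 0 with the block, where 19.5% of all tested genes were called. Without both number 1 libraries they were 1, 2, 0, 1 and 1, where 2798 of 13692 tested genes were called. The part of such cells in the results for the 9 genes was not tested.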

How the data were processed

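RNA-seq read counts of 6 libraries were analysed, 3 WT and 3 L1 KO. The authors deposited 1 table of raw counts per gene symbol. TopHat2, HTSeq and GRCm38 come from the submitters' processing notes. The sources used here give no version, annotation or strand setting. Its Ctrl columns were taken as the WT samples of the same number, and 0 columns were left over. Reads assigned to no feature (50.4% to 51.9% of all reads in the table), ambiguous reads (0.498% to 0.520%) and reads without a unique alignment (9.14% to 10.2%) were left out of library sizes.

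The count model was that of edgeR 4.0.16 under R 4.3.3. The filter was filterByExpr (minimum count 10, minimum total 15); counts were scaled by TMM and compared with glmQLFit (robust, current method) and two-sided quasi-likelihood F tests, adjusted by Benjamini-Hochberg over 13729 genes at 0.05. SE and 95% intervals derive from the F statistic. limma 3.58.1 and DESeq2 1.42.0 were alternatives. The procedure was tested on simulated counts. The p-values reflect the spread among these libraries alone, which may be technical; counting intervals and floors cover counting error only.

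The titles number both groups 1 to 3. Deviations from the group means correlated at 0.58, 0.17 and 0.34 between same-numbered libraries, all above the set 0.1, so the numbers were treated as pairs in a second fit. No label states what they mark, and WT 2 correlated better with L1 KO 3 (0.29) and L1 KO 2 better with WT 3 (0.22).

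The 9 genes and the lists were chosen with earlier results of these data known. Named genes were the 9, called genes and otherwise up to 4 smallest p of the other double positive genes, the regulators and the relatives, the Ikaros family, Cd1d2, Lag3, Rpl22l1 and the 3 profiles nearest to the member with the smallest p. Genes of the marker lists were named as defining markers or after their values were seen. Dgke and the read ratios of 3 gene pairs were added after their values were seen; the p-values of the ratios were adjusted by Benjamini-Hochberg. Among listed symbols outside the 9, Adgre1 was matched by a synonym, and Hbb-bs, Hbb-bt, Trdc and Tcrg-C4 were not matched. Gene models are from GENCODE vM21 and start-site windows from RefSeq, both on GRCm38.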

Additional observations from a re-analysis of the deposited data

How the results depend on the processing

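A930013B10Rik and Cd1d1 were called lower under all 16 alternatives, with log2 fold changes of −1.03 to −0.87 and −0.52 to −0.45 and adjusted p of up to 0.00786 and 0.0491. The number of the 9 genes called lower was 2, or 3 with the block, without L1 KO 1 and without both number 1 libraries; leaving out 1 library gave 2 to 3, and the number called higher was 0 throughout. Signs of uncalled members turned. Cd4 had 0.11 without both number 1 libraries and −0.41 to 0.20 when 1 library was left out. Cd8b1 had 0.0045 with DESeq2, 0.19 without both number 1 libraries and −0.081 to 0.13 with 1 left out. Cd8a had −0.32 to 0.60 and Arpp21 −0.0038 to 0.15 with 1 left out. The other double positive genes called were 2, but 1 with limma-voom, earlier edgeR defaults (added after seeing the data) or a filter of 5 CPM, 3 with DESeq2, 4 with the block, 5 without both number 1 libraries and 1 to 2 with 1 library left out. The regulators called were 2, but 1 with library size only or the filter of 5 CPM, 4 with DESeq2, 7 with the block, 6 without both number 1 libraries and 0 to 5 with 1 left out. All tested genes called were 626, 1222 with DESeq2, 2684 with the block, 2798 without both number 1 libraries, and 102 (without WT 2) to 2043 (without L1 KO 1) with 1 left out. The cause of these shifts was not tested. For 16 other named genes (those of the related lists, with Dgke and Rpl22l1), 22 of 254 values lost and 22 gained a call, and none turned direction. Slc7a11, at a mean of 1.41 CPM in WT and 0.499 CPM in L1 KO, was removed by the filter of 5 CPM and not tested there. Cd4, Cd8a and Cd8b1 were removed by it too, and few reads and the spread between libraries both widen the intervals of these coreceptor genes.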
